A study of Saccharomyces cerevisiae with 8 samples.

Results

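The genes described here encode the yeast Snf1 protein kinase complex, the phosphatase that opposes it and the Mig repressors that act downstream of it: *SNF1*, *SNF4*, *SIP1*, *SIP2*, *GAL83*, *REG1*, *GLC7*, *MIG1*, *MIG2* and *MIG3*. They were chosen by name as the members of this pathway, and all 10 were found among the 5444 genes measured, each by 1 probe set. Transcript levels came from Affymetrix GeneChip Yeast Genome 2.0 arrays and are given as log2 expression levels. The L-UBB+1 strain carried the plasmid p413 TEF-UBB+1, from which the constitutive yeast TEF promoter drives low expression of UBB+1, a frameshift form of human ubiquitin. The control strain carried the same plasmid without the insert. Both were made in *Saccharomyces cerevisiae* CEN.PK113-11C, a haploid that the methods describe as MATα with mutations in *HIS3* and *URA3* and the alleles *MAL2-8c* and *SUC2*, and both grew in shake flasks at 30 °C in minimal glucose medium without histidine. Each strain was sampled at day 6 (D6), which the methods place after the carbon source was used up, and in the exponential phase (EX), with 2 biological replicates per group and 8 arrays in all. Whether replicate cultures came from separate transformants was not given in the sources used here, so p-values measure the spread between these cultures. No probe set named for human UBB+1 was used, so its expression was not checked.

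Snf1 is the yeast AMP-activated protein kinase. When glucose is scarce, upstream kinases phosphorylate it, and it is best known for relieving glucose repression so that cells can use ethanol, acetate, sucrose, maltose and other carbon sources. When glucose is plentiful, the phosphatase Glc7, brought to the complex by Reg1, reverses that phosphorylation, and the zinc finger repressor Mig1 stays in the nucleus and silences its target genes. This control acts largely on the proteins, by phosphorylation and localization, which transcript arrays do not measure.

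Some arrays stood apart from their labels. L-UBB+1 EX replicate 1 and L-UBB+1 D6 replicate 2 differed by an SD of 0.086 over all genes, and L-UBB+1 EX replicate 2 and L-UBB+1 D6 replicate 1 by 0.143. The replicate pairs themselves differed by 0.249 to 0.287 in L-UBB+1 and by 0.202 to 0.256 in the control. In the control, D6 replicate 2 and EX replicate 2 differed by 0.248, slightly less than the D6 replicates (0.256). Between the members of this pathway the closest pair differed by at most 0.126. The labelled growth phase was also not matched by glucose markers. *ADH2*, the alcohol dehydrogenase that consumes ethanol and is shut off by glucose, stood at 12.12 and 11.71 in L-UBB+1 D6 and at 11.68 and 12.01 in L-UBB+1 EX, against 6.57 and 6.50 in control D6 and 6.49 and 6.61 in control EX. By this marker the control D6 arrays held a glucose-repressed pattern, and the L-UBB+1 EX arrays a derepressed one. Whether samples were exchanged could not be settled from the files, so each strain comparison was also made across the phase labels. The mating type markers did not match the MATα host either. The α-factor gene *MF(ALPHA)1* lay between 5.90 and 6.47 on all 8 arrays, near the lowest value of an array (5.08 to 5.17). Over the 6 a-cell genes, such as the α-factor receptor *STE2*, the mean level was 7.65 to 7.81 in L-UBB+1 and 9.27 to 9.61 in the control. Among these, the a-factor gene *MFA1* went the other way, at 9.53 to 9.80 in L-UBB+1 and 8.90 to 9.34 in the control. Over the 4 α-cell genes it was 7.09 to 7.16 in L-UBB+1 and 6.36 to 6.58 in the control. The part of these differences in the results below was not tested.

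The strains differed in some of the pathway's regulators and not detectably in others. *REG1* and *SIP2* rose in L-UBB+1 at both D6 and EX, *MIG2* fell at both, and *SNF4* fell at EX. A gene was called where limma gave an adjusted p under 0.001 and a change of at least 2-fold, the thresholds of the methods. By that rule 3 of 10 members were called at D6 (2 higher, 1 lower) and 4 of 10 at EX (2 higher, 2 lower). Among all 5444 genes, 36.4% were called at D6 and 34.3% at EX, so the members were called about as often as genes in general. Their median log2 fold change of L-UBB+1 over control was 0.02 at D6 and 0.28 at EX, beside −0.01 and 0.00 for all genes. At an adjusted p under 0.05 with no fold minimum, 6 members passed at D6 and 8 at EX, against 76.0% and 74.7% of all genes. By the methods' t-test at an unadjusted p under 0.05, 6 passed at D6 and 6 at EX, against 60.5% and 64.2%. The 4 L-UBB+1 arrays did not overlap with the 4 control arrays for 8 of 10 members, the exceptions being *SIP1* and *MIG3*, while 76.4% of all genes showed no overlap. The plot of the members on each array shows these levels.

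**Figure D1:**
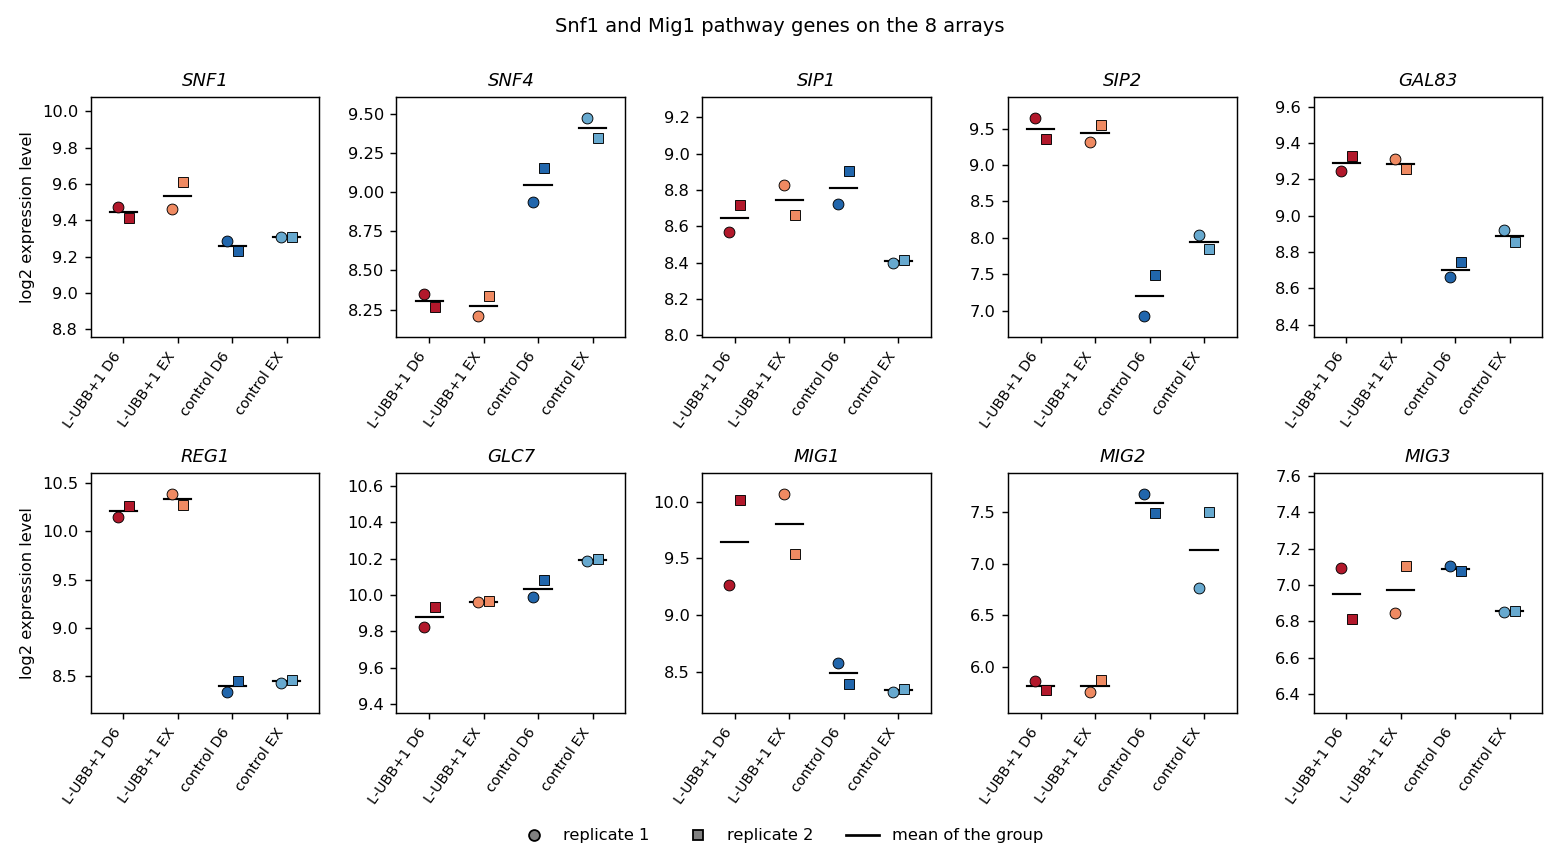
Log2 expression level (y axis, a separate scale for each gene) of the 10 members on the 8 arrays, by group (x axis), with circles for replicate 1, squares for replicate 2 and a line at the mean of each group. *REG1*, *SIP2*, *GAL83*, *MIG1* and, by a small margin, *SNF1* lie higher on all 4 L-UBB+1 arrays. *MIG2*, *SNF4* and, by a small margin, *GLC7* lie lower on all 4, whereas *SIP1* and *MIG3* overlap between the strains.

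The kinase complex has a catalytic subunit, a regulatory subunit and 3 alternative β subunits, which set where the kinase goes and what it acts on. The catalytic subunit *SNF1* (YDR477W) stood at 9.47 and 9.41 in L-UBB+1 D6 and 9.46 and 9.61 in L-UBB+1 EX, against 9.29 and 9.23 in control D6 and 9.31 and 9.31 in control EX. Its arrays did not overlap between the strains, but the log2 fold change was 0.18 at D6 (95% confidence interval −0.03 to 0.40, limma adjusted p = 0.105) and 0.23 at EX (0.01 to 0.45, adjusted p = 0.0559), and neither passed the test. The regulatory γ subunit *SNF4* (YGL115W), which relieves the autoinhibition of Snf1, ran the other way. Its level was 8.35 and 8.27 in L-UBB+1 D6 and 8.21 and 8.34 in L-UBB+1 EX, against 8.94 and 9.16 in control D6 and 9.48 and 9.34 in control EX. *SNF4* fell by 1.14 on the log2 scale at EX (SE 0.11, limma adjusted p = 6.29e-05), a level 2.20-fold lower in L-UBB+1. At D6 its log2 fold change was −0.74 (SE 0.11, adjusted p = 0.000587), short of 2-fold. The EX call for *SNF4* was lost without control EX replicate 1 (adjusted p = 0.00102), without both L-UBB+1 EX replicate 2 and L-UBB+1 D6 replicate 1 (0.00109) and without both L-UBB+1 EX replicate 1 and L-UBB+1 D6 replicate 2 (0.00166).

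Of the 3 β subunits, *SIP2* (YGL208W), whose protein keeps the kinase in the cytoplasm, changed most. Its level was 9.65 and 9.35 in L-UBB+1 D6 and 9.32 and 9.56 in L-UBB+1 EX, against 6.93 and 7.49 in control D6 and 8.04 and 7.84 in control EX. The control arrays were lowest at D6, and every L-UBB+1 array exceeded every control array by more than 1 on the log2 scale. *SIP2* rose 4.90-fold at D6 (log2 2.29, SE 0.20, limma adjusted p = 3.4e-05) and 2.82-fold at EX (log2 1.49, SE 0.20, adjusted p = 0.000331). With a single array of either EX group left out, the EX call was lost. It was also lost without either close pair of L-UBB+1 arrays. The EX log2 fold change was 1.61 without L-UBB+1 EX replicate 1 and 1.37 without L-UBB+1 EX replicate 2. *GAL83* (YER027C), the paralogue of *SIP2* whose protein takes the kinase to the nucleus, differed in the same direction by less. It stood at 9.25 and 9.33 in L-UBB+1 D6 and 9.31 and 9.26 in L-UBB+1 EX, against 8.66 and 8.74 in control D6 and 8.92 and 8.86 in control EX. The log2 fold change was 0.59 at D6 (SE 0.09, adjusted p = 0.000634) and 0.40 at EX (SE 0.09, adjusted p = 0.00498), under 2-fold at both.

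The remaining β subunit, *SIP1* (YDR422C), had levels of 8.57 and 8.72 in L-UBB+1 D6 and 8.83 and 8.66 in L-UBB+1 EX, against 8.72 and 8.90 in control D6 and 8.40 and 8.41 in control EX. The strains overlapped over their 4 arrays each. Its log2 fold change was −0.17 at D6 (95% confidence interval −0.43 to 0.09, limma adjusted p = 0.201) and 0.34 at EX (0.08 to 0.60, adjusted p = 0.025), and it was not called at either. The 3 β subunit transcripts thus did not differ alike between the strains.

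*REG1* (YDR028C), the regulatory subunit that directs the phosphatase to Snf1, was among the members with the steadiest difference. It stood at 10.15 and 10.27 in L-UBB+1 D6 and 10.39 and 10.27 in L-UBB+1 EX, against 8.34 and 8.45 in control D6 and 8.43 and 8.46 in control EX. Within each strain the 4 arrays spanned less than 0.3, and the strains lay more than 1.5 apart. *REG1* rose 3.51-fold at D6 (log2 1.81, SE 0.10, limma adjusted p = 3.95e-06) and 3.69-fold at EX (log2 1.88, SE 0.10, adjusted p = 3.76e-06). It kept the call in every limma alternative that was run. The catalytic subunit *GLC7* (YER133W), an essential type I phosphatase with many other partners, stood at 9.82 and 9.93 in L-UBB+1 D6 and 9.96 and 9.97 in L-UBB+1 EX, against 9.99 and 10.08 in control D6 and 10.19 and 10.20 in control EX. Its log2 fold change was −0.16 at D6 (95% confidence interval −0.37 to 0.05, adjusted p = 0.145) and −0.23 at EX (−0.44 to −0.02, adjusted p = 0.0491). The phosphatase's catalytic and targeting subunits therefore had log2 fold changes of opposite sign, of which the call fell on *REG1*.

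The 3 Mig repressors, zinc finger proteins that bind related GC-rich sites, moved in different ways. *MIG1* (YGL035C), the main target of Snf1 among them, stood at 9.27 and 10.02 in L-UBB+1 D6 and 10.07 and 9.54 in L-UBB+1 EX, against 8.58 and 8.39 in control D6 and 8.32 and 8.35 in control EX. The L-UBB+1 arrays were all higher but spread widely, and the 2 arrays near 10 were L-UBB+1 D6 replicate 2 and L-UBB+1 EX replicate 1, the closest pair over all genes. Its log2 fold change was 1.16 at D6 (SE 0.26, limma adjusted p = 0.00452) and 1.47 at EX (SE 0.26, adjusted p = 0.00139), more than 2-fold at both but not past the adjusted p. The call depended on which arrays were in the fit and on the fit itself. At EX it was reached without either close pair of L-UBB+1 arrays and at D6 without L-UBB+1 EX replicate 2 and L-UBB+1 D6 replicate 1. It was reached at D6 without L-UBB+1 D6 replicate 1 (log2 fold change 1.53, adjusted p = 0.000581) and at EX without either L-UBB+1 D6 array (adjusted p = 0.000206 in both cases) or with only the EX groups in the fit (0.000496). A block that crossed the replicate numbers, chosen after seeing that they deviated in opposite directions in L-UBB+1, also called *MIG1* higher at D6 (0.000686) and at EX (0.000212).

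*MIG2* (YGL209W), which shares glucose repression with Mig1 and is itself induced by glucose, went the opposite way. Its level was 5.86 and 5.78 in L-UBB+1 D6 and 5.76 and 5.87 in L-UBB+1 EX, against 7.68 and 7.49 in control D6 and 6.77 and 7.50 in control EX. On the 4 L-UBB+1 arrays it lay at the 2.13 to 2.72 percentile of all genes, and on the control arrays at the 9.33 to 27.8 percentile. No detection call was used, so whether the probe set was above background in L-UBB+1 was not tested, and the differences given are between measured values. *MIG2* fell by 1.77 at D6 (SE 0.22, limma adjusted p = 0.000188) and by 1.32 at EX (SE 0.22, adjusted p = 0.00095) on the log2 scale. The EX call was close to the threshold and was lost without any single array other than control EX replicate 1, with adjusted p between 0.00124 and 0.00644. It was also lost under quantile normalization (0.00106), with only the EX groups in the fit (0.00252) and with the replicate number as a block (0.00196). The D6 call was lost without L-UBB+1 D6 replicate 2 (adjusted p = 0.00101), control D6 replicate 1 (0.0028) or control D6 replicate 2 (0.00177), and without either close pair of L-UBB+1 arrays (0.00372 and 0.00435). *MIG3* (YER028C), a related repressor with a smaller set of targets, stood at 7.09 and 6.81 in L-UBB+1 D6 and 6.84 and 7.10 in L-UBB+1 EX, against 7.10 and 7.08 in control D6 and 6.85 and 6.86 in control EX. The log2 fold change was −0.14 at D6 (95% confidence interval −0.44 to 0.17, adjusted p = 0.361) and 0.12 at EX (−0.18 to 0.42, adjusted p = 0.428), and the strains overlapped.

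Some β subunit and Mig genes sit side by side in the genome. In the RefSeq gene order of yeast, *MIG2* and *SIP2* are neighbours on chromosome VII, and *GAL83* and *MIG3* are neighbours on chromosome V, so that a β subunit gene lies next to a Mig gene at both places. On chromosome VII *SIP2* rose and *MIG2* fell. On chromosome V *GAL83* differed by less than 2-fold and *MIG3* did not pass the test.

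**Figure D2:**
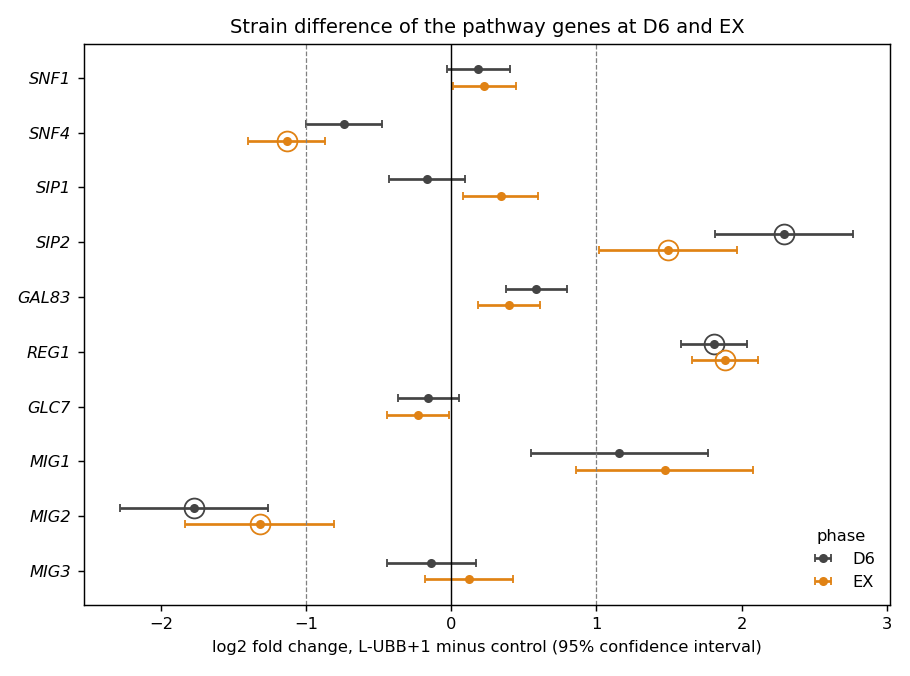
Log2 fold change of L-UBB+1 over control (x axis) for the 10 members (y axis) at D6 and at EX, with bars for the 95% confidence interval from limma, dashed lines at 2-fold and circled points for called genes. *SIP2* and *REG1* lie to the right of the 2-fold line and *MIG2* to the left at both phases, and the intervals of *MIG3* include 0.

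When the strains were set against each other across the phase labels, 3 members were called for L-UBB+1 EX against control D6, beside 37.0% of all genes, and 4 for L-UBB+1 D6 against control EX, beside 33.3%. *SIP2*, *REG1* and *MIG2* were called in the same direction in all 4 strain pairings, as 29.1% of all genes were. The fourth call was *SNF4*, with a log2 fold change of −1.10 for L-UBB+1 D6 over control EX (SE 0.11, limma adjusted p = 7.53e-05) and −0.77 for L-UBB+1 EX over control D6 (adjusted p = 0.000455, short of 2-fold). For *SIP2* the log2 fold change was 2.23 for L-UBB+1 EX over control D6 and 1.56 for L-UBB+1 D6 over control EX. These pairings share arrays with the strain comparisons within each phase and are not independent of them. Without L-UBB+1 EX replicate 2 and L-UBB+1 D6 replicate 1 together, *REG1*, *SIP2* and *MIG1* were called at D6 and *REG1* and *MIG1* at EX. Without L-UBB+1 EX replicate 1 and L-UBB+1 D6 replicate 2, the calls were *REG1* and *SIP2* at D6 and *REG1* and *MIG1* at EX. In the fit of all 8 arrays without a block, *MIG1* was not called.

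Between the phases no member was called by limma in either strain, and 0.0% of all genes were called in L-UBB+1 or in the control. In L-UBB+1, 0 members were under an unadjusted p of 0.05 in limma, as were 0.184% of all genes, and the log2 fold changes of D6 over EX were no larger than 0.16 in size. In the control, 3 of 10 members were, beside 27.2% of all genes, namely *SIP2* (log2 fold change of D6 over EX −0.74, adjusted p = 0.0749), *SIP1* (0.41, adjusted p = 0.0741) and *SNF4* (−0.36, adjusted p = 0.098). None passed an adjusted p of 0.05, which 3.51% of all genes did. By the methods' t-test unadjusted, *SIP1* and *MIG3* were the 2 members under 0.05 in the control, beside 11.6% of all genes, and none was in L-UBB+1, beside 2.2%. The strain effect at D6 minus that at EX was tested as an interaction term, and no member was called, with 0.0% of all genes. *SIP2*, *SIP1* and *SNF4* were under an unadjusted p of 0.05 in limma, as were 15.9% of all genes, with differences of 0.80 (adjusted p = 0.281), −0.51 (adjusted p = 0.275) and 0.40 (adjusted p = 0.303).

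Other genes of the pathway were described from lists of their roles. *CAT8*, *MTH1* and *REG2* each stand in 2 of the 9 lists, and the background for calls in 1 direction was 17.9% higher and 18.5% lower at D6, and 17.2% higher and 17.1% lower at EX. Among the 3 kinases that activate Snf1 by phosphorylating it, *TOS3* fell, with levels of 6.29 and 6.29 in L-UBB+1 D6 and 6.27 and 6.44 in L-UBB+1 EX, against 7.94 and 8.12 in control D6 and 7.91 and 8.01 in control EX. Its log2 fold change was −1.74 at D6 and −1.60 at EX (limma adjusted p = 7.23e-06 and 1.06e-05). *SAK1*, the kinase that contributes most to Snf1 activation, had log2 fold changes of 0.43 and 0.65 and *ELM1* of 0.02 and 0.22, and neither was called.

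Of 9 partners of Glc7 or of Mig1, 3 were higher and 1 lower at D6, and 3 higher and 2 lower at EX. *REG2*, the paralogue of *REG1*, rose by 2.88 at D6 and 2.10 at EX on the log2 scale. In the control *REG2* lay at the 6.8 to 20.4 percentile of all genes, and whether it was above background there was not tested. *GLC8*, a regulator of Glc7, rose by 2.10 and 1.54, and *MSN5*, the exportin that carries phosphorylated Mig1 out of the nucleus, rose by 1.29 and 1.39. *HXK2*, the glucose-phase hexokinase that also takes part in Mig1 repression, fell. It stood at 8.76 and 8.89 in L-UBB+1 D6 and 8.87 and 8.69 in L-UBB+1 EX, against 10.92 and 11.00 in control D6 and 11.02 and 11.06 in control EX, with log2 fold changes of −2.14 and −2.26 (limma adjusted p = 2.68e-06 and 2.36e-06). *SDS22*, another Glc7 subunit, fell by 1.55 at EX. The list's median was 0.07 at D6 and −0.38 at EX. With 1 array left out, 2 to 3 partners were higher at each phase. *REG2* was the call lost, at D6 without control D6 replicate 1 or 2 (adjusted p = 0.00217 and 0.00156) and at EX without either control D6 array, control EX replicate 1 or 2, or L-UBB+1 EX replicate 2 (0.00259 to 0.00804). It was also lost at EX with arrays centred on their medians (0.00111), with the replicate block (0.00188) and without both L-UBB+1 EX replicate 2 and L-UBB+1 D6 replicate 1 (0.00155), so the *REG2* call was not firm. *SDS22* was lost without control EX replicate 1 (0.00108).

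Of 7 corepressors and other glucose repressors, 2 were higher and 1 lower at each phase, with medians of −0.19 at D6 and −0.01 at EX. *RGT1*, the repressor of hexose transporter genes, rose by 2.24 at D6 and 2.34 at EX on the log2 scale, and its corepressor *MTH1* by 2.22 and 2.36. *STD1*, the paralogue of *MTH1*, fell by 1.42 and 1.43. *CYC8* and *TUP1*, the general corepressor through which Mig1 acts, were not called, with log2 fold changes of −0.19 and −0.60 at D6 and −0.01 and −0.43 at EX. Without L-UBB+1 EX replicate 2, alone or with L-UBB+1 D6 replicate 1, *NRG1* was called higher as well at EX (adjusted p = 0.000538 and 0.000777).

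The activators that Snf1 switches on and their targets were mostly higher. Of 8 activators, 6 rose at D6 and 7 at EX with none lower, and the median log2 fold change was 1.96 and 1.92. *CAT8*, the activator of gluconeogenic genes whose promoter Mig1 represses, stood at 10.29 and 10.13 in L-UBB+1 D6 and 10.19 and 10.29 in L-UBB+1 EX, against 6.37 and 6.51 in control D6 and 6.87 and 6.50 in control EX. It rose by 3.77 at D6 and 3.55 at EX (limma adjusted p = 1.23e-06 and 1.68e-06). *ADR1*, which activates genes for ethanol and fatty acid use, rose to 10.62 and 10.81 in L-UBB+1 D6, against 7.71 and 7.73 in control D6, and by 3.40 on the log2 scale at EX. *SIP4*, which shares targets with Cat8, rose by 2.61 at D6 and 2.72 at EX. All 14 target genes of Cat8 and Adr1 on the list rose at both phases, with medians of 3.89 and 3.59. Among them the measured log2 differences at D6 and at EX were 5.87 and 5.79 for the peroxisomal catalase *CTA1*, 5.38 and 5.29 for *ADH2* and 5.05 and 4.84 for the lactate permease *JEN1*. In the control *CTA1* lay at the 4.19 to 4.7 percentile of all genes of an array and *ADH2* at the 6.69 to 8.12 percentile. *CAT8* lay there at the 6.48 to 10.9 percentile and *SIP4* at the 6.67 to 10.1 percentile. Over the 14 targets the control percentiles ran from 1.98 to 76.2. Whether the dim genes were above background in the control was not tested. Their differences, and the target medians, are thus between measured values and have no set order. All 6 glucose-induced genes fell at both phases, with medians of −2.72 and −2.02, and the enolase *ENO2* had log2 fold changes of −3.97 and −4.17. The hexose transporter genes *HXT3* and *HXT1* had −2.90 and −2.82 at D6, and *HXT3* had −2.19 at EX. At EX the pyruvate decarboxylase *PDC1* fell by 2.48. With 1 array left out, 5 to 6 of the activators were called at D6 and 5 to 7 at EX, 12 to 14 of the targets at D6 and 11 to 14 at EX, and 6 of 6 glucose-induced genes at D6 and 5 to 6 at EX. The 12 targets were those without control D6 replicate 1 or 2, where *ICL1* and *IDP2* were lost, and the 11 those without control EX replicate 1 or 2, where *MLS1* was lost as well. *SIP4* was lost at D6 without control D6 replicate 2 (log2 fold change 2.53) and at EX without control EX replicate 2 (2.65). *PIP2*, another of the activators, was lost at EX without L-UBB+1 EX replicate 1 (1.06) or either control EX replicate (1.21 and 1.28). *HXT1* was lost at EX without any single EX array of either strain (−1.29 to −1.46). *PIP2* and *HXT1* were also lost at EX without either close pair of L-UBB+1 arrays. Without either close pair of L-UBB+1 arrays, 14 targets, 6 activators and 5 glucose-induced genes were called at EX.

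**Figure D3:**
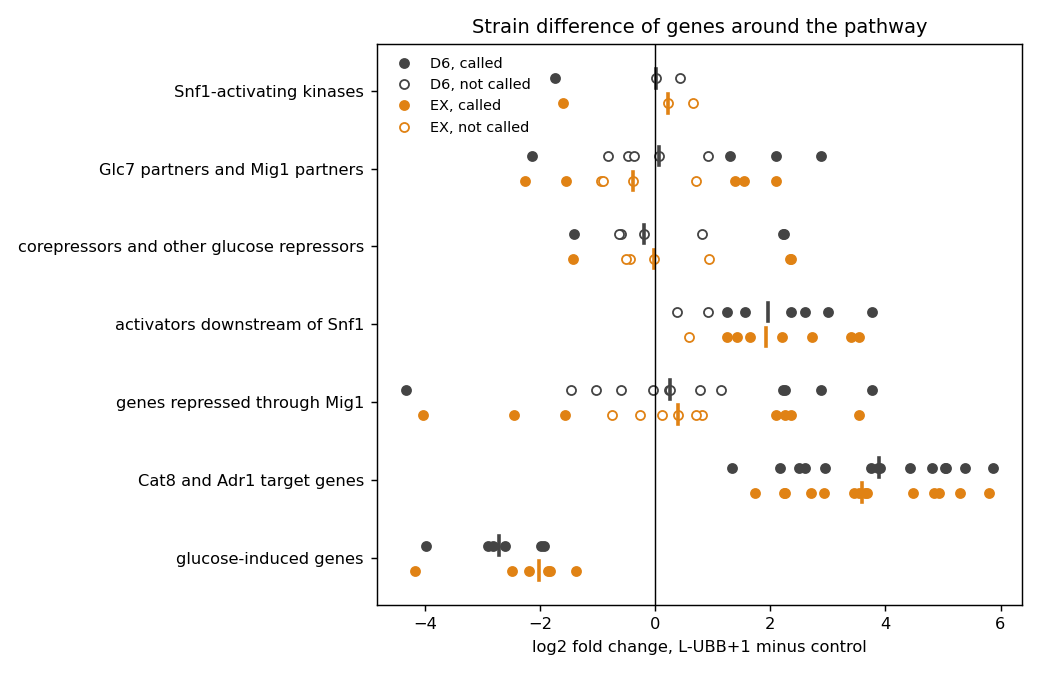
Log2 fold change of L-UBB+1 over control (x axis) of each gene in the pathway lists (y axis), at D6 and at EX, with a bar at the median of each list. The Cat8 and Adr1 targets all lie above 1 and the glucose-induced genes all below −1, whereas the genes repressed through Mig1 spread from −4.33 to 3.77.

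Genes that Mig1 is known to repress did not share a direction. Of 13 measured, 4 were higher and 1 lower at D6, and 4 were higher and 3 lower at EX, with medians of 0.26 and 0.40, and *GAL4* was not analysed here. The higher ones were *CAT8*, *REG2*, *MTH1* and the maltose permease *MAL31*. With 1 array left out, 3 to 4 were higher at each phase, *REG2* being the call lost in the fits named above. *MAL31* stood at 10.79 and 10.87 in L-UBB+1 D6 and 10.87 and 11.00 in L-UBB+1 EX, against 8.52 and 8.64 in control D6 and 8.70 and 8.67 in control EX, a rise of 2.25 at both phases (limma adjusted p = 2e-06 and 2.16e-06). Both strains carry the *MAL2-8c* allele, which makes maltose genes less dependent on maltose. *SUC2*, the invertase gene and classical Mig1 target, lay at 8.38 and 8.52 in L-UBB+1 D6 and 8.57 and 8.47 in L-UBB+1 EX, against 8.49 and 8.48 in control D6 and 8.81 and 8.76 in control EX. Its log2 fold change was −0.03 at D6 (adjusted p = 0.793) and −0.27 at EX (adjusted p = 0.0347), and it was not called.

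The lower ones were genes of hexose uptake and phosphorylation. *HXT4*, a hexose transporter that low glucose induces, stood at 7.09 and 7.55 in L-UBB+1 D6 and 7.60 and 7.28 in L-UBB+1 EX, against 11.58 and 11.71 in control D6 and 11.35 and 11.61 in control EX. It fell by 4.33 at D6 and 4.04 at EX (limma adjusted p = 1.86e-06 and 2.41e-06). *HXK1*, a hexokinase of low glucose, fell by 2.45 at EX, and *EMI2*, a glucokinase paralogue, by 1.57. At D6 their log2 fold changes were −1.03 and −0.59 and were not called. Without either close pair of L-UBB+1 arrays, without L-UBB+1 EX replicate 1 or without control EX replicate 1, 1 gene of this list rather than 3 was lower at EX, since *HXK1* and *EMI2* were lost. *HXK1* was also lost without control EX replicate 2 (adjusted p = 0.00195), and without control D6 replicate 1 it was called at D6 (0.000865). Without L-UBB+1 EX replicate 1 and L-UBB+1 D6 replicate 2, *HXT2* was called lower at D6 besides *HXT4*, with a log2 fold change of −2.17. *HXT2*, another hexose transporter, followed the array pairs, with 8.76 and 10.16 in L-UBB+1 D6 and 10.15 and 8.89 in L-UBB+1 EX, against 11.07 and 10.79 in control D6 and 10.40 and 10.14 in control EX. With all 8 arrays in the fit it was not called.

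**Figure D4:**
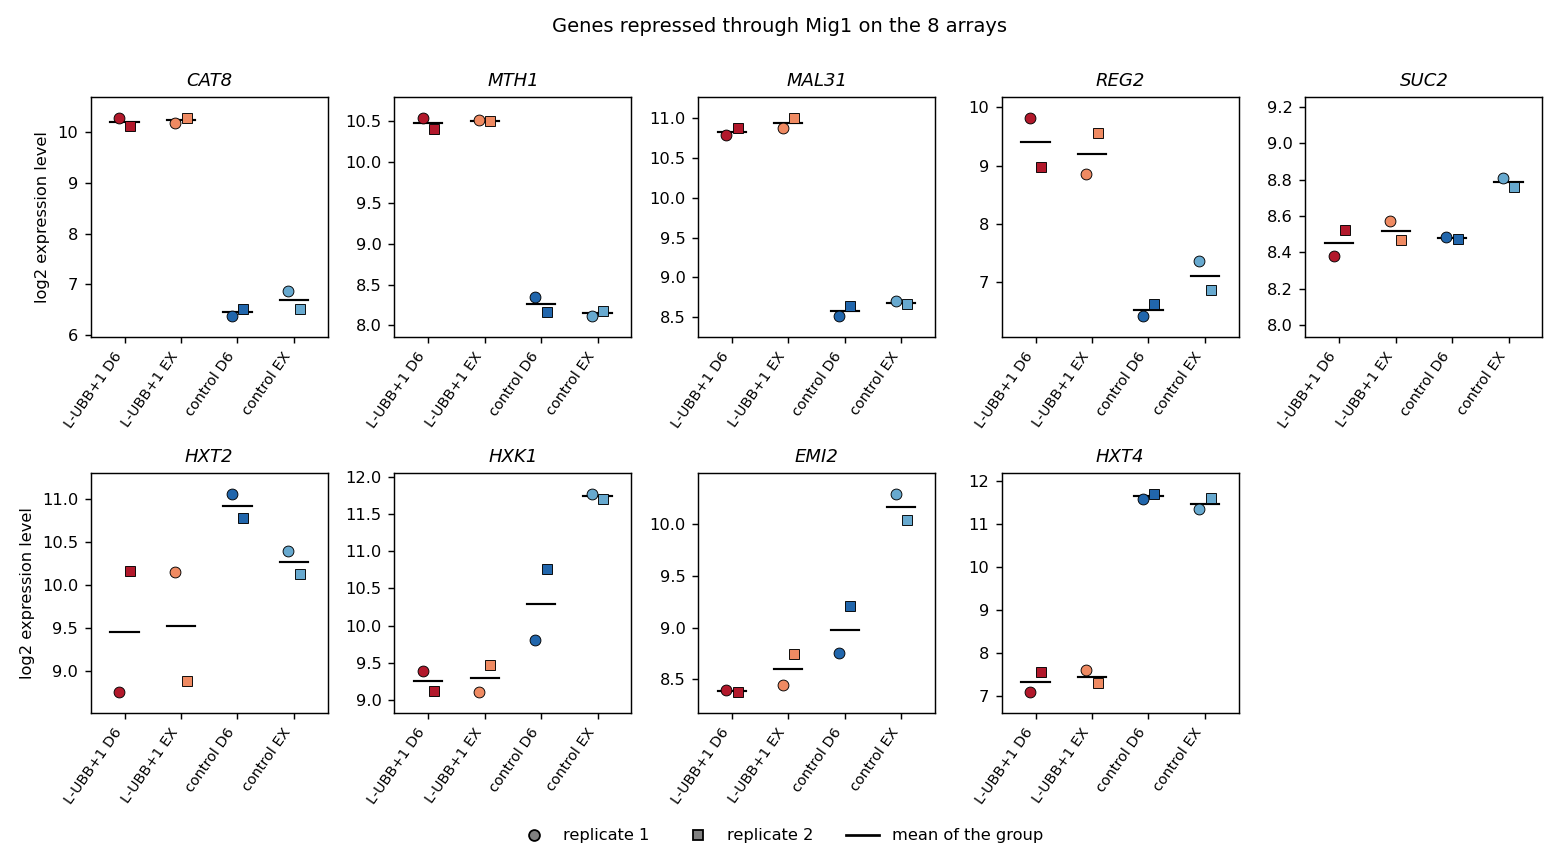
Log2 expression level (y axis, a separate scale for each gene) of 9 genes repressed through Mig1 on the 8 arrays, by group (x axis), with circles for replicate 1, squares for replicate 2 and a line at the mean of each group. *CAT8*, *MTH1*, *MAL31* and *REG2* lie higher on all 4 L-UBB+1 arrays. *HXT4*, *HXK1* and, by a small margin, *EMI2* lie lower on all 4, and *SUC2* and *HXT2* overlap between the strains.

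Over the 8 arrays, the genes whose levels followed *MIG1* most closely were *RFC2*, which encodes a subunit of the DNA clamp loader, *SNF12*, a subunit of the SWI/SNF chromatin remodeller, and *SKY1*, an SR protein kinase, with Pearson's r of 0.999, 0.998 and 0.997. Those closest to *SNF1* were the meiotic kinase *MEK1* (0.979), YLR012C (0.978) and *ECM8* (0.975). These correlations are descriptions over arrays that fall into 2 strains, and 1241 genes exceeded an r of 0.9 with *MIG1* and 345 with *SNF1*.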

How the data were processed

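Total RNA of 8 samples (4 groups of 2 replicates) was labelled from its 3′ ends. It was hybridised to Affymetrix GeneChip Yeast Genome 2.0 arrays, 1 array per sample. It is not known here whether a single culture gave both a D6 and an EX sample. The main fit treated the 8 arrays as independent. The authors processed the scanned arrays in R with PIANO and deposited log2 expression values per probe set. The submitters' processing notes name R 3.2.3, and how the authors normalized and summarized the probes was not given in the sources used here. No further normalization was applied, and array medians lay between 8.34 and 8.41. The number of arrays limits the precision.

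Of 5705 probe sets, 5489 had 1 gene in the platform annotation and 216 had none, and 12 symbols were updated through RefSeq. For 43 genes with several probe sets the one with the highest mean was used, leaving 5444 genes. No member's probe set was of a cross-hybridizing type. Beyond percentiles within an array, the lowest value of an array and means over mating genes, probe levels of different genes were not compared.

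Group means were fitted with limma 3.58.1 in R 4.3.3 (4 residual and 3.26 prior degrees of freedom), with Benjamini-Hochberg adjustment over all genes. Comparisons were the strains at D6 and at EX, D6 and EX within a strain, and the interaction of strain and phase. The fit was tested on simulated data. Alternatives changed the normalization, the gene filter, probe sets, prior, arrays, block and thresholds. Pairings across the phase labels and fits without 2 close L-UBB+1 arrays were added after the data were seen. The members and lists were chosen with earlier results of these data known. All members were named, with up to 3 called genes per list, direction and phase, and the 3 genes most correlated with *MIG1* and *SNF1*. Beyond these, *SUC2*, *HXT2*, *SAK1*, *ELM1*, *CYC8*, *TUP1* and the mating genes were named for their role or spread. *NRG1*, *ICL1*, *IDP2*, *MLS1*, *MAL32* and *PIP2* were named for a call that an alternative changed. Gene sequences were not used here.

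Replicate numbers were checked as pairs by correlating the deviations from the group means. The correlation was −0.855 between L-UBB+1 D6 and L-UBB+1 EX and lay between −0.388 and 0.364 for other group pairs, so the numbers were not taken to pair the samples.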

Additional observations from a re-analysis of the deposited data

Results flagged for a closer look

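*SIP1*, the β subunit gene, had opposite directions at the 2 phases. Every L-UBB+1 EX array was above both control EX arrays, and the L-UBB+1 D6 mean was below that of control D6. The log2 fold change of L-UBB+1 over control at D6 minus that at EX was −0.51. The interaction term in limma gave an unadjusted p of 0.0137 and adjusted p = 0.275, so the difference did not pass the test over all genes.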

How the results depend on the processing

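The number of members called between the strains, 3 at D6 and 4 at EX, stayed within 1.5 times of these under quantile normalization, centring, other probe set choices, another prior, the 2 groups alone, a replicate block and the omission of the dimmest 20% of genes, which left out *MIG2* and *MIG3*. With no fold minimum and an adjusted p under 0.05, 6 were called at D6 and 8 at EX. The methods' t-test called 0 at either phase after adjustment (0 over all genes), and 6 at D6 and 6 at EX unadjusted, where 60.5% and 64.2% of all genes passed. It called 2 between the phases of the control unadjusted, beside 11.6% of all genes. Leaving out 1 array in turn gave 2 to 4 at D6, 2 to 4 at EX and 0 to 0 for the phases and the interaction, a lone array being assumed to vary like the other groups. Without L-UBB+1 EX 2 and D6 1, or without L-UBB+1 EX 1 and D6 2, the EX calls were *REG1* and *MIG1*, the latter not among the 4.

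The replicate block gave 3 calls at D6 and 3 at EX, where *MIG2* was lost (adjusted p = 0.00196), and changed no other member's call. Of the list genes it lost *REG2* at EX and called *MAL32* higher at D6 (0.00054). *MIG2* at EX was also lost under quantile normalization and with the 2 groups alone. The same numbers correlated negatively in L-UBB+1, and with them crossed 4 members were called at D6 and 5 at EX, *MIG1* being the one added at each.

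Direction changed for *SIP1* and *MIG3* alone. *SIP1* at D6 became 0.24 against control EX and at EX −0.07 against control D6. With 1 array left out, *MIG3* ranged from −0.28 to 0.00 at D6 and from −0.01 to 0.25 at EX. *MIG3* at D6 became 0.00 without L-UBB+1 D6 replicate 2 or without both L-UBB+1 EX 1 and D6 2, and 0.10 against control EX. At EX it became −0.01 without L-UBB+1 EX replicate 2 or without both L-UBB+1 EX 2 and D6 1, and −0.12 against control D6. The causes were not tested. Of 496 single-gene values, 428 kept direction and side of the threshold, 35 lost a call, 25 gained one and 8 reversed. The planned search for Mig1 motifs in promoters was not run.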
